A study of Rattus norvegicus with 18 samples.

Results

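The mRNA levels of the broken femur were set, in older rats 1 and 2 weeks into healing, against those of younger rats at the same times. The members were the 2 older arrays labelled 1 week and 2 weeks, chosen by their labels alone, out of 18 arrays. They were compared with 4 arrays of the same times, 1 young and 1 adult array at 1 week and the same at 2 weeks, across all genes and with time as a term. The rats were female Sprague-Dawley rats, 6 weeks (young), 26 weeks (adult) or 52 weeks (older) old when the femur was broken, and all 6 arrays came from animals with a fractured femur held by an intramedullary rod. RNA was taken from the middle segment of the femur, which holds callus, cortical bone and marrow together. The RNA of 2 rats was pooled on each array, so an array gives the mean of its pair and no spread between animals. An age had 1 array at each time. With time as a term, p-values therefore measured the spread between young and adult arrays and the change of age differences between the times.

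A closed fracture heals through inflammation, a soft callus of cartilage and fibrous tissue, and then woven bone that is remodeled. In this rat model the fracture heals more slowly with age. The shaft of the femur is wrapped in skeletal muscle, whose contractile proteins and mitochondria give some of the most abundant mRNAs of the body, and the marrow adds red cell precursors and white cells. In such a bulk sample, fewer cells of a type and less RNA per cell cannot be told apart.

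No gene passed the test. Of 4669 probe sets tested, 0 were called by limma at an adjusted p of 0.05 (0%), and the lowest adjusted p was 0.292. At an unadjusted p of 0.05, 340 probe sets (7.28%) were higher and 232 (4.97%) were lower in the older rats. Both older arrays lay above all 4 others for 694 probe sets (14.9%) and below all 4 for 501 (10.7%), and these shares are the background for every count below. Over all probe sets tested, the SD of the log2 difference between older rats and the mean of young and adult rats was 0.60 at 1 week and 0.48 at 2 weeks, and the SD between single adult and young arrays, which no averaging narrows, was 0.54 and 0.69. The 1-week and 2-week differences came from separate arrays. They had the same sign for 66.9% of the 4669 probe sets and a Pearson r of 0.46 across them, given as a description because probe sets are not independent.

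Some properties of the arrays differed between the older and the other arrays. The median signal was 158.9 and 166.9 on the older arrays and between 140.5 and 151.4 on the other 4, and 40.2% and 37.7% of their signals lay below 100 against 41.4% to 42.4%. The 5′ to 3′ ratio of Actb, a sign of RNA length, was 0.65 and 0.55 in older rats and between 0.37 and 0.53 in the others. On the first principal component of all 18 arrays, which held 43.4% of the variance, the older 1-week array scored 33.4, within the range of the 3-day arrays (32.5 to 39.5), while the older 2-week array scored 24.6 and the other 4 between 5.8 and 19.4. The young 2-week array held far more red cell mRNA than any other of the 6. The part of these properties in the gene differences was not tested, and counts without single arrays are given with the results.

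The mRNAs of mature skeletal muscle were lower in older rats. Of 39 such genes measured, both older arrays lay below all 4 others for 24 (61.5%, against 10.7% of all probe sets) and above all 4 for 0. The median log2 fold change of the list was -1.01, against 0.04 over all probe sets tested, and 37 of the 39 genes were below 0. Summed over the list, the signal was 138876 at 1 week and 197618 at 2 weeks in older rats, and between 256539 and 400871 on the other arrays. Each of the 39 genes had a signal above the floor of 100 on at least 1 of the 6 arrays.

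Members of this list serve contraction, calcium handling and fuel use. Here and below, signals are given in the order young at 1 and 2 weeks, adult at 1 and 2 weeks, then older at 1 and 2 weeks. Atp2a1, the calcium pump of fast muscle fibers, had signals of 22547 and 20982 in young rats and 21109 and 24513 in adult rats at 1 and 2 weeks, and 8194 and 11083 in older rats. The 2 older arrays were the lowest by a wide margin, and the log2 fold change was -1.22 ± 0.18 (SE). Cacna1s, the voltage sensor of excitation-contraction coupling, stood at 1040, 879, 930 and 965 on the young and adult arrays and at 419 and 438 on the older arrays. This was a log2 fold change of -1.15 ± 0.17, with the 4 other arrays close together. Myh2, a fast myosin heavy chain, was at 6800, 4809, 3804 and 5626 in the younger rats and at 1431 and 2195 in older rats (log2 fold change -1.54 ± 0.29). Myl11, a fast myosin light chain, was at 20052, 19294, 15615 and 22787 against 8654 and 10183 (-1.04 ± 0.19). For each of the 4 genes the groups did not overlap, and limma's adjusted p was 0.292.

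Further members followed the same order. Ppp1r1a, an inhibitor of protein phosphatase 1, is not on the muscle list but had the lowest unadjusted p of all genes, 4.04e-04. Its signals were 1231, 1176, 934 and 1792 in young and adult rats and 315 and 412 in older rats, a 3.46-fold difference (log2 -1.79 ± 0.24), and its second probe set gave -1.91 ± 0.32. Slc2a4, the insulin-regulated glucose transporter of muscle and fat, was at 1483, 812, 702 and 1636 against 288 and 418 (-1.64 ± 0.42), while its second, weaker probe set overlapped between groups at -0.51 ± 0.36. The differences were thus over 3-fold for the most extreme genes and smaller for others. Acta1, skeletal muscle actin, was at 27590, 26521, 29700 and 34688 against 18512 and 23727, a log2 fold change of -0.49 ± 0.20. Other settings gave Acta1 values from -0.63 to -0.09. The 2 members above 0 were Tpm3 and Casq2, whose log2 fold changes were 0.15 and 0.11. Of 14 genes of developing muscle, 0 lay below all 4 other arrays, 1 lay above, and the median was 0.29. Without the older 2-week array, 7 of the 14 lay above (50%, against 27.4% of all), and without the older 1-week array 1 did (7.14%, against 23.7%).

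The core promoters of the muscle genes that lay lowest by unadjusted p are shown because these members stood together, with the E-box CAGCTG, the letters bound by muscle regulatory factors, in capitals. The sequences are RefSeq's, build GRCr8, 250 bases before to 50 after the start of the gene, written 5′ to 3′ on the gene's strand. Atp2a1 lies at chr1:190475361-190475660 on the minus strand, Pgam2, the muscle phosphoglycerate mutase, at chr14:84897825-84898124 on the minus strand, and Cacna1s at chr13:50045418-50045717 on the plus strand.
Atp2a1: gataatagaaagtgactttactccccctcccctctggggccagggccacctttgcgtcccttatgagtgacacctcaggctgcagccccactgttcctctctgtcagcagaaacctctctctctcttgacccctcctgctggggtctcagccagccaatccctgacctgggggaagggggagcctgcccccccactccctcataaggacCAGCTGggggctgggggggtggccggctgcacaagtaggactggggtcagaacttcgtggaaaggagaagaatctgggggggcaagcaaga
Pgam2: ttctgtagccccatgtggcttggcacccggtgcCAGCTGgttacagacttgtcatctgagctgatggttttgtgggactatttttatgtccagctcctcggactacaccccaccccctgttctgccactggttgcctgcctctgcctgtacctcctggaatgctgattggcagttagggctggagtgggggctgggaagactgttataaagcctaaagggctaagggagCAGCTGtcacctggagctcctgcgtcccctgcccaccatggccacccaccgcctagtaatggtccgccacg
Cacna1s: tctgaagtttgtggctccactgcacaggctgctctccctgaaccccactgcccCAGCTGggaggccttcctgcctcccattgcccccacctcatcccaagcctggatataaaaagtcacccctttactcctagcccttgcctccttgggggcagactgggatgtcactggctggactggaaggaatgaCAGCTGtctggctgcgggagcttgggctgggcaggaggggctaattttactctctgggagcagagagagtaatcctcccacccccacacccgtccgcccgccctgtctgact
The motif is its own reverse complement, so a match holds for both strands. It was found in 18 of the 33 muscle members that had a promoter in the table (54.5%), in 11 of the 20 matched members that lay below all 4 other arrays (55%), in 8 of 36 matched oxidative phosphorylation genes (22.2%), and in 15.1% of all 33469 promoters. The second of these sets is part of the first, no difference between shares was tested, and a match is only a run of letters, not a measured site.

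**Figure D1:**
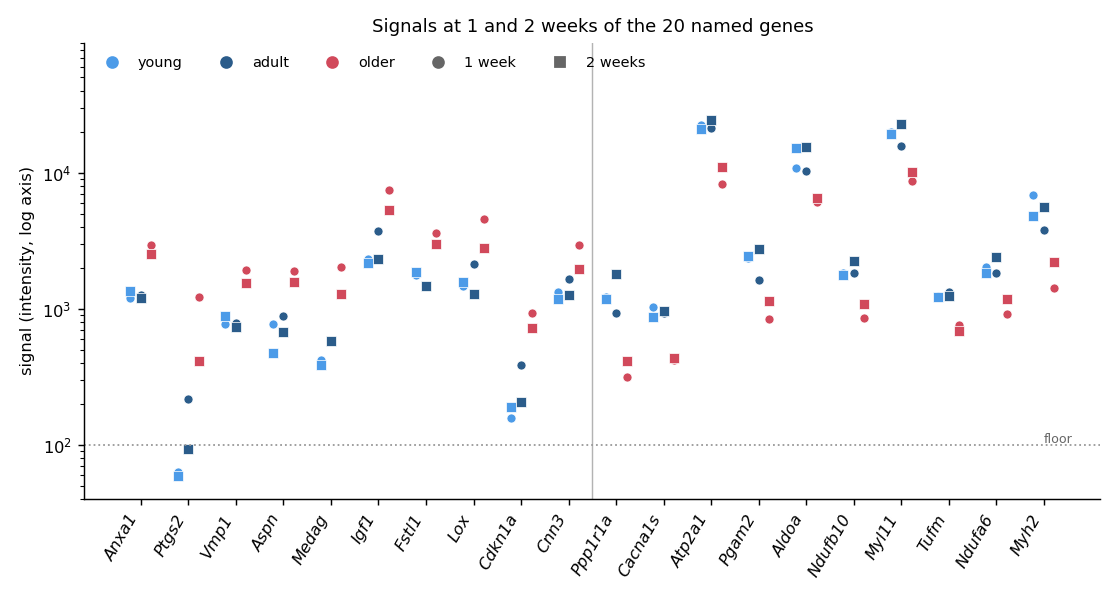
Signals (log axis) of the 20 genes with the lowest unadjusted p that met the naming rule, 10 higher and 10 lower in older rats, with 1 point per array, circles for 1 week and squares for 2 weeks. The dotted line is the floor of 100 applied before log2. For every one of the 20 genes both older points lie outside the range of the 4 young and adult points, and 0 passed the adjusted threshold.

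The nuclear genes of mitochondrial respiration were lower as a group. All 43 oxidative phosphorylation genes measured had a log2 fold change below 0, from -1.12 to -0.01, with a median of -0.69. Both older arrays lay below all 4 others for 30 of them (69.8%, against 10.7%) and above for 0. Complexes I, III and IV and ATP synthase were all represented. In complex I, Ndufb10 was at 1831, 1768, 1819 and 2246 in young and adult rats and at 852 and 1085 in older rats (log2 fold change -0.99 ± 0.17). In complex III, Uqcrfs1, the Rieske iron-sulfur protein, was at 8610, 5943, 5346 and 7337 against 3154 and 3759 (-0.96 ± 0.24). In complex IV, Cox4i1 was at 16286, 11876, 16372 and 16303 against 7799 and 10162 (-0.76 ± 0.23). In ATP synthase, Atp5f1b, the catalytic beta subunit, was at 10284, 9674, 7655 and 10595 against 6739 and 6985 (-0.47 ± 0.18). In each of these the groups did not overlap. Muscle mRNAs were lower on the same 2 arrays by the amounts given above, and the part of muscle content in the mitochondrial differences was not tested.

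Of 21 fatty acid oxidation genes, 10 lay below all 4 other arrays (47.6%), 0 lay above, and the median was -0.50. Acsl1, which activates long-chain fatty acids, was at 806, 597, 457 and 734 in the younger rats and at 246 and 273 in older rats (-1.29 ± 0.29), but its other 2 probe sets overlapped between groups, at -0.85 ± 0.41 and 1.10 ± 0.44. Of 16 glycolysis genes, 3 lay above and 5 below all 4 other arrays (18.8% and 31.2%), 10 were below 0, and the median was -0.34. Pfkm, muscle phosphofructokinase, was at 5519, 5133, 4191 and 8846 against 2576 and 2086 (-1.30 ± 0.31). Pgam2, whose promoter is shown above, was at 2378, 2455, 1628 and 2764 against 838 and 1149 (-1.21 ± 0.20), and Aldoa at 10894, 15159, 10250 and 15401 against 6042 and 6514 (-1.02 ± 0.17). The 3 genes above all 4 arrays were Pfkp, Pgam1 and Slc2a1. Pfkp, the platelet phosphofructokinase, had a log2 fold change of 0.55 ± 0.21, Pgam1, the brain-type mutase, of 0.25 ± 0.14, and Slc2a1, the glucose transporter found in most cells, of 0.84 ± 0.22. Tufm, the mitochondrial translation elongation factor, was at 1240, 1227, 1331 and 1249 against 764 and 682 (-0.80 ± 0.15), with the younger arrays within a narrow range.

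**Figure D2:**
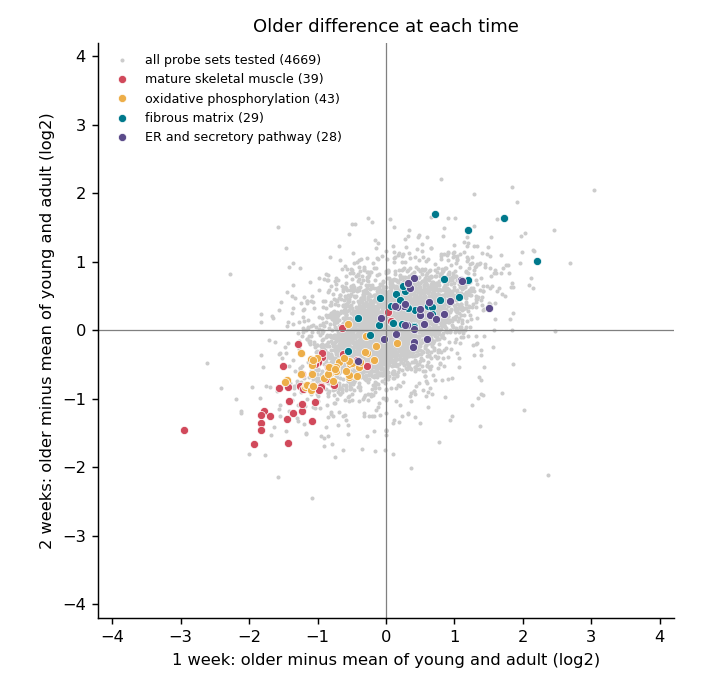
Each point is a probe set, placed by the log2 difference between the older array and the mean of the young and adult arrays at 1 week (x axis) and at 2 weeks (y axis), with 4 gene lists in color. Muscle and oxidative phosphorylation genes sit mostly in the lower left (medians -1.22 and -0.78 at 1 week, -0.83 and -0.54 at 2 weeks), and fibrous matrix and secretory genes mostly in the upper right.

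Most genes of the fibrous matrix were higher in older rats, but their summed signal overlapped between groups. The sum was 155809 at 1 week and 140409 at 2 weeks in older rats, and between 112037 and 155801 on the other arrays. Of 29 measured, 25 were above 0 and 11 lay above all 4 other arrays (37.9%, against 14.9% of all probe sets), with 1 below, and the median log2 fold change was 0.36. Aspn, asporin, a small proteoglycan that binds collagen and TGF-beta, was at 774, 476, 887 and 681 in the younger rats and at 1899 and 1577 in older rats, a 2.52-fold difference (log2 1.33 ± 0.21). Tnn, tenascin N of the periosteum, was at 1892, 1024, 3919 and 1742 against 9008 and 4144 (1.68 ± 0.36). Lox, which crosslinks collagen, was at 1460, 1570, 2121 and 1296 against 4553 and 2820 (1.18 ± 0.22), but its other 3 probe sets gave 0.19, 0.56 and 0.65, so its size was uncertain. The brightest of them (0.19 ± 0.36), which overlapped between groups, is the one counted in the list. Col12a1, a collagen of dense connective tissue, had a log2 fold change of 0.80 ± 0.21. The member below all 4 arrays was Eln, elastin, at -0.43 ± 0.16.

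Most genes of protein folding and secretion were on the same side, as were most matrix proteases and their inhibitors. Of 28 genes of the endoplasmic reticulum and secretory pathway, 26 were above 0, 12 lay above all 4 other arrays (42.9%) and 1 below, with a median of 0.33. Hspa5, the main chaperone of the endoplasmic reticulum, was at 2737, 2103, 2461 and 1815 against 3433 and 3321 (0.58 ± 0.17), and Calr, calreticulin, at 9511, 8009, 8381 and 8174 against 10703 and 10393 (0.31 ± 0.15). The older arrays were high in both genes, by less than 2-fold. Erp29 was the exception, at -0.43 ± 0.18, with a second, weaker probe set at 0.06 ± 0.39. Among 26 matrix proteases and inhibitors, 22 were above 0, 7 lay above and 1 below (26.9% and 3.85%), with a median of 0.38. Their summed signal overlapped between groups, at 76272 and 81908 in older rats and between 70927 and 76862 on the other arrays. Without the young 2-week array 8 of the 26 lay above (30.8%, against 25.3% of all). Mmp2, gelatinase A, was at 3809, 3867, 4457 and 4580 against 8893 and 6409 (0.86 ± 0.19).

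Of 12 osteoblast and bone matrix genes, 9 were below 0, and 2 lay above and 3 below all 4 other arrays, with a median of -0.29. The count below all others was 8 of 12 without the older 2-week array (66.7%, against 21.5% of all probe sets) and 5 without the young 1-week array (41.7%, against 13.1%). It was 3 without the older 1-week array (25%, against 17.9%). Bglap, osteocalcin, a product of mature osteoblasts, was at 17920, 19609, 11489 and 9879 in young and adult rats at 1 and 2 weeks and at 4777 and 7505 in older rats (log2 fold change -1.24 ± 0.37). It was lowest in older rats and highest in young rats at both times. Col1a1, the main collagen of bone, was at 27219, 25462, 42695 and 30428 against 20417 and 23001 (-0.51 ± 0.26). Other settings gave Col1a1 values from -0.74 to -0.03, so its size was uncertain. Col1a2 had a log2 fold change of -0.42 ± 0.22. Quantile normalization turned Col1a2 to 0.033, so no direction is given for it. Postn, periostin of the periosteum, was at 4451, 2746, 6716 and 5113 against 8398 and 7733 (0.83 ± 0.32), and Enpp1, which makes the mineralization inhibitor pyrophosphate, gave 0.92 ± 0.24. Of 8 cartilage genes, 6 were above 0 and 1 lay above all 4 other arrays, Comp at 1.04 ± 0.29, while Col2a1, the collagen of cartilage, overlapped between groups at 6591, 14462, 7034 and 11010 against 11336 and 12841. The count above was 3 of 8 (37.5%) without the young 2-week, the adult 1-week or the older 2-week array. Over all probe sets the shares above were 25.3%, 19.3% and 27.4% in these settings. Without the older 1-week array 2 of 8 cartilage genes lay above (25%, against 23.7%). Osteoclast genes differed between the times. All 7 measured were below 0 at 1 week. Of these, 5 lay below both younger arrays of that time (71.4%, against 33.2% of all probe sets). At 2 weeks 3 were below 0. Then 3 lay above both younger arrays (42.9%, against 34.2%) and 1 lay below (14.3%, against 27.1%). Of the 7, 0 lay outside the range of the other arrays on both older arrays. Without the older 2-week array 5 lay below (71.4%, against 21.5%), and without the older 1-week array 3 lay above (42.9%, against 23.7%).

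Ptgs2, cyclooxygenase 2, which makes prostaglandins early in fracture repair, had the largest difference of the named genes. Its signals were 63.6 and 59.0 in young rats and 218 and 94.2 in adult rats at 1 and 2 weeks, and 1213 and 414 in older rats. The log2 fold change was 2.54 ± 0.40, with 3 of the 4 younger signals below the floor of 100, and limma's adjusted p was 0.292. At 4 and 6 weeks and without fracture the difference was 0.00 on this scale, because all signals lay under the floor. A second probe set for Ptgs2 overlapped between groups, at 0.61 ± 0.38. Ptgs1, the constitutive isoform, lay below all 4 other arrays instead, at 397, 422, 470 and 336 against 200 and 326 (-0.66 ± 0.29). The promoter of Ptgs2 is shown because the gene had the largest difference of those named, at chr13:64713813-64714112 of GRCr8 on the plus strand. The E-box CACGTG, which is its own reverse complement and stands in 6.42% of all promoters of the table, is in capitals.
Ptgs2: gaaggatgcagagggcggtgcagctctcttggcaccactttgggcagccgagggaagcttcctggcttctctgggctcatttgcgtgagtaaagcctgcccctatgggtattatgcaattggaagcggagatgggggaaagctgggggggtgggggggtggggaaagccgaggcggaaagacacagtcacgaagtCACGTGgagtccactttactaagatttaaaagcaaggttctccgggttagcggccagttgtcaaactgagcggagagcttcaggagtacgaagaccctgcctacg

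Some other genes of stress and inflammation were also higher in older rats. Anxa1, annexin A1, which damps inflammation, was at 1207, 1354, 1267 and 1206 in the younger rats and at 2968 and 2521 in older rats (log2 fold change 1.12 ± 0.16). It was also high in older rats without fracture, at 5266 against 2240 and 718. Cdkn1a, the cell cycle inhibitor p21, was at 159, 190, 389 and 206 against 935 and 723, a 3.71-fold difference (1.89 ± 0.38), while its second probe set gave 1.02 ± 0.30 and overlapped between groups. Of 25 immediate early and stress genes, 6 lay above and 1 below (24% and 4%), among them Egr1 (0.67 ± 0.18), Dusp1 (0.92 ± 0.22) and Atf3 (1.06 ± 0.30). Without the older 2-week array 15 of the 25 lay above (60%, against 27.4% of all). Without the older 1-week array 8 did (32%, against 23.7%). Of 29 inflammation genes, 7 lay above and 2 below (24.1% and 6.9%, against 14.9% and 10.7% of all). Without the older 1-week array 8 lay above (27.6%, against 23.7%), and without the older 2-week array 11 did (37.9%, against 27.4%). The list as a whole was thus not far from all probe sets. Ccl2, the monocyte chemoattractant, was at 528, 565, 471 and 429 against 1610 and 710 (1.11 ± 0.31), and Socs3, a brake on cytokine signaling, was at 291, 44.3, 199 and 193 against 420 and 644 (1.51 ± 0.45). The older arrays were above the rest in each, with the higher value at 1 week for Ccl2 and at 2 weeks for Socs3.

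Igf1, a growth factor of bone and muscle repair, was at 2339, 2169, 3708 and 2331 in the younger rats and at 7413 and 5284 in older rats on its strongest probe set (log2 fold change 1.28 ± 0.22). Its other 3 probe sets overlapped between groups and gave 0.25 ± 0.47, 1.39 ± 0.52 and 1.23 ± 0.58, so they disagreed on the size. Fstl1, follistatin-like 1, a secreted glycoprotein, gave 1.01 ± 0.18 on one probe set and 0.31 ± 0.23 on a brighter one. Of 29 growth factors and receptors, 7 lay above all 4 other arrays and 2 below (24.1% and 6.9%, against 14.9% and 10.7% of all). The 7 included Tgfb3 at 0.67 ± 0.23 and Acvr1, a bone morphogenetic protein receptor, at 1.10 ± 0.35. Without the young 2-week array 7 lay above and 6 below (24.1% and 20.7%, against 25.3% and 16.7%), so the list was then near all probe sets. Acvr1 lay near the floor, and a floor of 200 gave 0.63. Bdnf, a neurotrophin, was at 169, 187, 313 and 259 against 57.5 and 119 on the brighter of its probe sets (-1.04 ± 0.32, -0.25 with a floor of 200 and -1.44 with a floor of 20). Its other probe set lay above all 4 other arrays, at 0.94 ± 0.21, so no direction is given for Bdnf. The remaining named genes were Vmp1, an autophagy gene (1.13 ± 0.18), Medag, a gene of fat cell formation (1.73 ± 0.28), and Cnn3, an actin-binding calponin (0.84 ± 0.17). Medag was at 421, 387, 584 and 585 against 2022 and 1279, and it did not overlap.

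Among 7 circadian clock genes, 3 lay above all 4 other arrays (42.9%, against 14.9% of all) and 0 below. Nr1d2, the nuclear receptor Rev-erb beta, was at 152, 191, 154 and 160 in the younger rats and at 339 and 387 in older rats (log2 fold change 1.14 ± 0.19). Dbp, a clock-controlled transcription factor, was at 244, 174, 142 and 88.5 against 452 and 521 (1.63 ± 0.37), and Bhlhe41, a clock repressor, at 189, 146, 305 and 190 against 672 and 385 (1.35 ± 0.28). Without fracture there was 1 older array against 1 young and 1 adult array. There all 7 clock genes were below 0 in older rats, with a median of -0.74. Dbp was at 597 and 603 in young and adult rats and at 99.0 in older rats, and Nr1d2 at 454 and 361 against 161. The difference between the older effect at 1 and 2 weeks and that without fracture was 4.22 ± 0.66 for Dbp, and limma's adjusted p of 0.146 was the lowest of that comparison. Bmal1, Nr1d1, Tef and Bhlhe40, the other clock genes measured, overlapped between groups. The time of day of tissue collection is not given in the sources used here.

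Of 13 erythroid genes, 0 lay above and 4 below all 4 other arrays, and the median was -0.50. The count below was 7 without the adult 2-week array and 8 without the older 2-week array (53.8% and 61.5%, against 12.6% and 21.5% of all). It was 4 without the older 1-week array (30.8%, against 17.9%). Hbb, beta globin, was at 11695, 25991, 6830 and 6765 in young and adult rats and at 3027 and 5995 in older rats (-1.35 ± 0.56), so the young arrays, above all that of 2 weeks, were the highest. The summed erythroid signal was between 7494 and 12951 in older rats and between 14302 and 59475 in the others. Of 12 neutrophil genes 1 lay above, Anxa1, and of 12 macrophage genes 5 lay above and 0 below, with medians of 0.09 and 0.21. The shares above were 8.33% and 41.7%, against 14.9% of all. The summed macrophage signal overlapped, at 41298 to 42643 in older rats and 37489 to 49147 in the others. Lgals3, galectin 3 of macrophages, was at 1507, 1887, 2784 and 1238 against 4058 and 3232 (1.03 ± 0.31). Of 36 ribosomal protein genes, 5 lay above and 11 below (13.9% and 30.6%), with a median of -0.19, and without the young 2-week array 18 lay below (50%, against 16.7%). Of 32 proliferation genes 2 lay above (6.25%, against 14.9% of all) and 0 below. Without the young 2-week array 11 lay above (34.4%, against 25.3%).

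**Figure D3:**
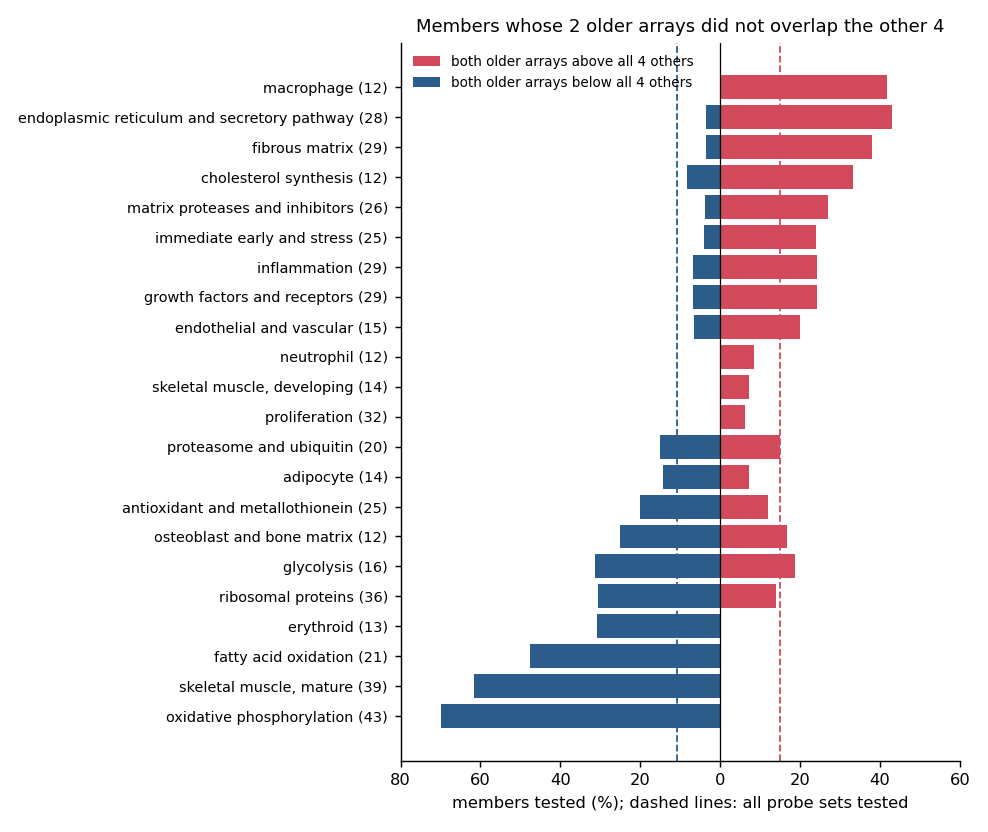
For each of the 22 lists with at least 12 genes measured (number in brackets), bars give the percent of members whose 2 older arrays lay above (red, right) or below (blue, left) all 4 young and adult arrays, with dashed lines for all 4669 probe sets (14.9% and 10.7%). Oxidative phosphorylation and mature muscle reach 69.8% and 61.5% on the low side, and secretory, macrophage and fibrous matrix genes lead the high side.

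Nerve-related genes were the subject of the study, which chose its lists on arrays that include these, so their direction is not independent evidence. Of the genes the study lists as more up-regulated in older rats, 6 were tested, 2 lay above all 4 other arrays and 0 below, and the median log2 fold change was 0.96. Spon1, spondin 1 of axon guidance, was at 155, 251, 230 and 221 in young and adult rats and at 869 and 476 in older rats (1.61 ± 0.35). Thbs4, thrombospondin 4 of tendon and muscle, was at 1418, 1046, 2487 and 2805 against 4312 and 2851 (0.97 ± 0.45), where the older 2-week value exceeded the adult 2-week value only narrowly. The others, Camk2b, Chrna1, C1s and a probe set without a symbol, overlapped between groups. Of 6 genes with a prolonged fall in older rats (Lypd8l1, Sncg, Npy, Nrgn, Nnat and Acsl6), 0 lay outside on both arrays, with a median of -0.12. Of 3 with a greater rise in younger rats (Cdk17, Nr4a3 and Ptprz1), 0 lay outside, all 3 were above 0, and the median was 0.27. The study tested examples of that list in young against older rats, while adult rats are averaged in here. Adult minus young had medians of -0.34 at 1 week and -0.70 at 2 weeks in that list. At 1 week 2 of the 3 genes lay above both the young and the adult array (66.7%, against 40.4% of all), and at 2 weeks 0 did. The summed signal of the 3 was 722 and 1039 in young rats at 1 and 2 weeks and 810 and 908 in older rats. The older array was thus above the young array at 1 week and below it at 2 weeks. Among 8 Schwann cell genes 3 lay above (37.5%, against 14.9% of all), among them Pmp22, a myelin protein (0.72 ± 0.21). Among 10 neuronal genes 4 lay below (40%, against 10.7% of all), among them Mapt, the microtubule protein tau (-0.61 ± 0.22). Of these 10, 5 were above 0 and 5 below, with a median of -0.10.

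The older differences of 1 and 2 weeks were set against those of 4 and 6 weeks and of rats without fracture. Neither comparison called a probe set (0% each), with 155 and 571 at an unadjusted p of 0.05 and lowest adjusted p-values of 0.997 and 0.146 by limma. Mature muscle genes were low in older rats at most times, with medians of -1.85 without fracture, 0.25 at 3 days, -1.22 at 1 week, -0.83 at 2 weeks, -1.19 at 4 weeks and -0.86 at 6 weeks. Oxidative phosphorylation genes followed the same course, at -1.33, -0.01, -0.78, -0.54, -0.75 and -0.81. In both lists the largest difference was thus in femurs that had not been broken, where 37 of 39 and 42 of 43 genes were below 0. Each of those values rests on 1 older array against 2.

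The course of the fibrous matrix genes was different. Their median was -0.64 without fracture and -0.13 at 3 days, then 0.41 and 0.36 at 1 and 2 weeks and 0.48 and 1.01 at 4 and 6 weeks. For Mmp2 the log2 difference was -1.75 without fracture and 1.11 and 0.61 at 1 and 2 weeks, and the difference from no fracture did not pass the test, with an adjusted p of 0.233 by limma. The median of the secretory genes was above 0 at every time. It was 0.29 without fracture, 0.05 at 3 days, where 8 of 28 genes were below 0, and 0.40 and 0.24 at 1 and 2 weeks. Over all probe sets tested, the medians at these times were 0.10, 0.00, 0.04 and 0.05.

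**Figure D4:**
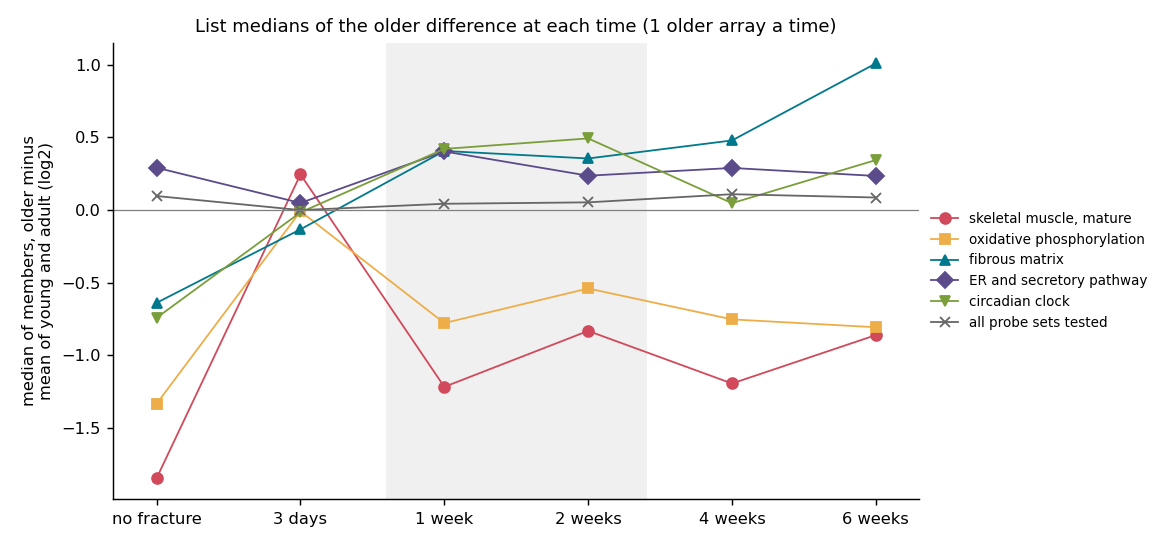
Median over the members of each list of the log2 difference between the older array and the mean of the young and adult arrays, at each time, with 1 older array a time and different rats at each, and with 1 and 2 weeks shaded. Muscle and oxidative phosphorylation lie below 0 at every time but 3 days, where they stand at 0.25 and -0.01, while fibrous matrix passes from -0.64 without fracture to 0.41 at 1 week.

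The leading counts were taken again without the arrays that stood apart, a choice made after seeing the data. Without the older 1-week array, 25 of 39 muscle genes (64.1%, against 17.9% of all probe sets) and 30 of 43 oxidative phosphorylation genes (69.8%) lay below the 4 others, and 13 of 29 fibrous matrix genes (44.8%, against 23.7%) and 15 of 28 secretory genes (53.6%) lay above. Without the young 2-week array the counts were 28, 32, 14 and 19, against 16.7% below and 25.3% above over all probe sets. Fibrous matrix genes above the rest numbered 18 without the adult 1-week array and 19 without the older 2-week array (62.1% and 65.5%, against 19.3% and 27.4%).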

How the data were processed

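The authors used Affymetrix oligonucleotide arrays for rat genes and deposited intensities, as Microarray Suite 5.0 gives them after scaling every array to a mean of 500. Such scaling fixes the mean of an array, so a fall in abundant mRNAs raises the others. Present and absent calls and the study's other array series were not used here. Each array pooled 2 rats, and the number of arrays limits the precision.

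Gene names came from the platform annotation, updated through RefSeq gene identifiers. Signals below 100 were set to 100 and then turned to log2 from the deposited values. Controls were left out, and a probe set was tested if 3 or more of the 18 arrays reached a signal of 200. This left 4669, of which 3877 had 1 symbol. limma 3.58.1 in R 4.3.3 (lmFit, eBayes with trend, two-sided) was fitted to the 6 arrays with time and older age as terms and 3 residual degrees of freedom. The Benjamini-Hochberg adjustment ran over all tested, with a threshold of 0.05. The older effect was also compared with that of 4 and 6 weeks (12 arrays) and without fracture (9 arrays). Values are mean differences ± SE on the log2 scale, and the floor understates changes of weak genes. The script was tested on simulated data.

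The 37 gene lists took the brightest probe set of each gene and are described by counts and medians, with no set test. The naming rule took the 15 highest and 15 lowest called probe sets with a signal of 500 or more and the same direction at both times. With too few calls, it took the 10 of lowest p in each direction as values only, plus the nerve lists of the study. Other genes were chosen after their values were seen. The members and lists were chosen with earlier results of these data known. Same-time samples share a time label and no animals. Time was therefore a term in the fit and pairs the arrays of a time. Alternatives were other floors, filters, scalings, moderation, codings of age, sets of arrays, and each array left out.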

Additional observations from a re-analysis of the deposited data

Results flagged for a closer look

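For 84 probe sets of genes named in the text, the 4 young and adult arrays were checked for a value far from the other 3, by the gap to its neighbor over the whole range of the 4 on the log2 scale. The gap passed the 95% critical value of Dixon's test for 8 of them. The test's rate of about 1 of 20 holds for replicates of the same condition. These 4 arrays differ in age and time, so that rate gives no expected count here. The highest of the 4 stood apart for Ptgs2 (1.00, with the other 3 at the floor), Igf1 (0.859), Ndufb10 (0.854) and Pfkp (0.868). The lowest stood apart for Comp (0.883), Ccn1 (0.951), Cox4i1 (0.984) and Atf3 (0.850).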

How the results depend on the processing

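Of the probe set counts, 0 were called in the older comparison under quantile normalization, equal medians, both stricter filters, robust or untrended moderation, 1 probe set per gene, the other codings of age, only older and young or older and adult arrays, and the ordinary two-sample test of the methods. Calls appeared with a floor of 200 (14), no filter (17), 12 arrays (2, Ptgs2 and Ppp1r1a) and all 18 arrays (3, with Il1rl1). Of the 14 and 17 calls, 12 and 15 had at least 3 of 6 arrays at the floor, where equal values leave little spread. The difference from no fracture called 123 with a floor of 200, 286 without a filter and 2 on 18 arrays, among them Dbp, and that from 4 and 6 weeks called 22 without a filter. Of the 123, 286 and 22 calls, 112, 258 and 21 had at least 3 arrays at the floor. Leaving out each array in turn gave 0 to 0 calls for the older comparison and for the difference from 4 and 6 weeks, and 0 to 2 for that from no fracture, with the 2 lacking the adult array without fracture. At an unadjusted p of 0.05, 572 probe sets became 167 without the older 1-week array, 315 without the older 2-week array and 973 without the young 2-week array. The fit without time as a block, so that arrays of a time were not paired, called 0 (lowest adjusted p 0.198 by limma) and left the list medians as they were. With age as a linear term, per step of age, the medians were -0.49 for muscle, -0.34 for oxidative phosphorylation, -0.28 for fatty acid oxidation 0.25 for fibrous matrix and 0.14 for secretory genes, and against young arrays alone fibrous matrix was at 0.49. Other scalings moved the median of all probe sets from 0.04 to 0.00, and the non-overlapping counts from 694 and 501 to 633 and 555 (quantile) or 623 and 569 (equal medians). Of 84 named probe sets, Col1a2 turned direction, to 0.033 under quantile normalization. For the others no alternative turned it, but Col2a1, Col1a1 and Acta1 came as near 0 as 0.03, -0.03 and -0.09. The cause of the changes was not tested. Signals near the floor of 100 limit what weak genes can show.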
